A study of Mus musculus with 6 samples.

Results

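The elongases and desaturases of long-chain fatty acids were followed in dorsal mouse skin over the first days after depilation. Their 10 genes were the rows carrying the symbols Elovl1, Elovl3, Elovl4, Elovl5, Elovl6, Elovl7, Scd1, Scd2, Fads1 and Fads2, of 32285 genes listed, and all 10 were found in every library. The data were 6 single-cell libraries of the 3′ type, with 1 library each at 0, 4 and 16 hours (h) and at 2, 4 and 6 days (d) after depilation. Each library came from wildtype male FVB mice of postnatal day 55 to 57, 2 per time point, whose dorsal skin had been shaved and waxed to start hair regrowth. The skin of the 2 mice was digested separately and the cells were pooled in equal numbers, so that no cell can be traced to its mouse. No mutation, transgene or drug was part of any group, and the 0 h library is the reference.

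The libraries held 7307 to 13878 barcodes and 72634390 to 112370376 unique molecular identifiers (UMIs), and 50502 of 61031 barcodes were kept as cells. Of these cells, 612 carried a barcode that another library also held. Cells were clustered without the 10 genes and without 53 further lipid genes, and each cluster was named after fixed markers. The sebaceous gland (SG)-like class had all 7 of its markers above the other cells, and its Cidea, Mgst1 and Far2 were among its 10 leading genes. It held 13 cells at 0 h and 239, 309, 397, 648 and 283 cells in the later libraries, so its 0 h values rest on few cells. The T cell-like and Langerhans cell-like cells served as the background of free RNA for genes that these cells should lack. Levels are given as UMIs of the gene per 1000000 UMIs of a cell type in a library (CPM), with exact Poisson 95% intervals. They are counts of transcript 3′ ends and are not divided by transcript length. The intervals cover counting error only, not the spread between mice, and with 1 library per time point no test between 2 time points was possible.

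Fatty acid elongation adds carbons to an acyl-CoA at the endoplasmic reticulum, and the ELOVL enzymes carry out its first, rate-limiting condensation. ELOVL6 extends palmitate to stearate, ELOVL1, ELOVL3 and ELOVL7 make very long saturated and monounsaturated chains, ELOVL4 makes the ultra-long chains of the acylceramides of the skin barrier, and ELOVL5 works on polyunsaturated chains. SCD1 and SCD2 place a double bond in saturated acyl-CoAs to give palmitoleate and oleate, and FADS1 and FADS2 place further double bonds in polyunsaturated fatty acids. In skin these chains enter sebum, the ceramides of the cornified envelope and the membranes of growing cells. Mice that lack Scd1 have rudimentary sebaceous glands, and mice that lack Elovl4 die after birth with a failed skin barrier.

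In GRCm38, with the GENCODE vM21 annotation, 5 of the genes lie on chromosome 19. Fads1 (chr19:10182888-10196877, plus strand) and Fads2 (chr19:10062765-10101746, minus strand) are 81141 bp apart with 0 protein-coding genes between them. Scd2 (chr19:44293674-44306864, plus strand) and Scd1 (chr19:44394455-44407879, minus strand) are 87590 bp apart with Scd4 between them. Elovl3 is at chr19:46131897-46135694 on the same chromosome, and Elovl1 at chr4:118428093-118432953, Elovl5 at chr9:77917364-77984519, Elovl6 at chr3:129532355-129638495 and Elovl7 at chr13:108214404-108285683 are, like it, on the plus strand. Elovl4 (chr9:83778692-83806277) is on the minus strand. Elovl1, Elovl3 and Elovl6 overlap a gene on the opposite strand, namely Cdc20, Pitx3 and the antisense transcript Gm35986, and Elovl7 overlaps the processed pseudogenes Gm32376 and Gm30747 on the opposite strand. Reads of Scd1 and Scd2 could also be shared with their relatives Scd3 and Scd4, so the split within that family is uncertain.

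RefSeq promoter windows matched 6 of the 10 genes, and no entry was held for Elovl3, Scd1, Scd2 and Fads1. The windows of Elovl6 and Elovl4, which are SG-rich, and of Elovl7, the gene highest at 4 h, are shown from 5′ to 3′ upstream of the start, in the build GRCm38.p6. They cover chr3:129532136-129532354 on the plus strand for Elovl6, 219 bases with 31 left out because GENCODE places them inside the gene, chr9:83806306-83806555 on the minus strand for Elovl4 and chr13:108214154-108214403 on the plus strand for Elovl7. Capitals mark matches, on either strand, to 4 motifs: the E-box spelled CACGTG, the CCAAT box, the GC box spelled GGGCGG and the sterol regulatory element spelled TCACNCCAC.
Elovl6: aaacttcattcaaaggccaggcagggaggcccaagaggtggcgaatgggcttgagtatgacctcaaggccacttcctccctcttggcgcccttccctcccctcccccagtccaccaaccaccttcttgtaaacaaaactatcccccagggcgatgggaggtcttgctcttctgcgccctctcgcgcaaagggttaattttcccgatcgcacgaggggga
Elovl4: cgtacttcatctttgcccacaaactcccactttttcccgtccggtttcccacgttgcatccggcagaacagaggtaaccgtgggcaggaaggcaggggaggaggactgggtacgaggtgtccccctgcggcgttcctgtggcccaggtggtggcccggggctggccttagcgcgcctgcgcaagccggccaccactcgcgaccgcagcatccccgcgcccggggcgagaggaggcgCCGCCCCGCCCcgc
Elovl7: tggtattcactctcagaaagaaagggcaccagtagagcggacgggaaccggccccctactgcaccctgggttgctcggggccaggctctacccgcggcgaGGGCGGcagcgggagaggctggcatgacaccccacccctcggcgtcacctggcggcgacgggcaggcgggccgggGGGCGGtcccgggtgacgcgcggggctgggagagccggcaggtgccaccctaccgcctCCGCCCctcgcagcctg
The Elovl6 window held 0 matches, the Elovl4 window 2 GC boxes that share a base and the Elovl7 window 3 GC boxes. Elovl5, which is SG-rich as well, also has an entry, and its window, not shown, held 1 E-box and 2 CCAAT boxes. Over 32851 promoters, 6.02% of the windows held an E-box, 33.8% a CCAAT box, 32.7% a GC box and 1.05% a sterol regulatory element, so the GC boxes of Elovl4 and Elovl7 are a common feature.

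Elovl3, Elovl6 and Scd1 were genes of the SG. SG-like cells were 3.74% of all cells and held 96.3% of the Elovl3 UMIs, 80.5% of the Elovl6 UMIs and 77.3% of the Scd1 UMIs of the 6 libraries. They also held 31.4% of the Elovl5 UMIs and 25.4% of the Elovl4 UMIs, and less than 1% of the UMIs of each of the other 5 genes. The map of median levels by cell type shows these 3 genes as a single bright column and the other genes spread over several types.

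**Figure D1:**
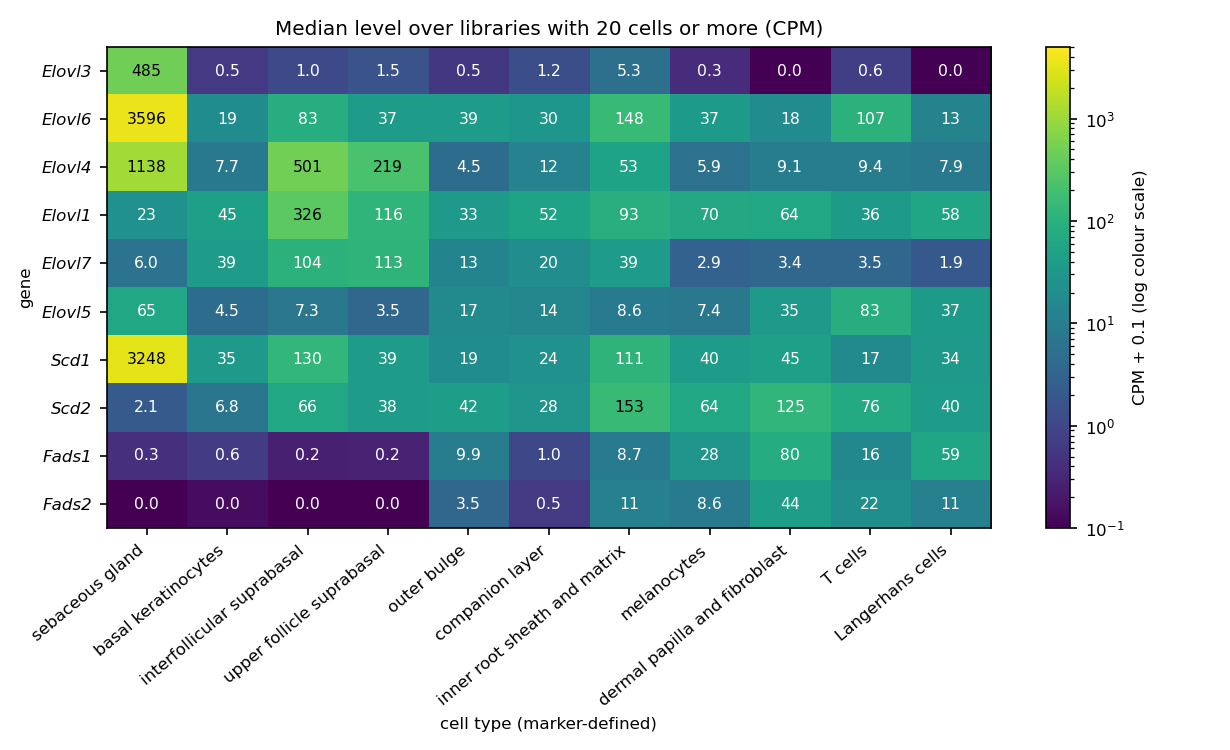
Median CPM of each gene (rows) in 11 marker-defined cell types (columns) over the libraries with at least 20 cells of the type; the colour is on a log scale of CPM + 0.1. Scd1 and Elovl6 reach medians of 3248 and 3596 CPM in the sebaceous gland class, and Fads1 and Fads2 stay under 1 CPM there.

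Scd1 stood at 2669, 3248, 2510.3, 3932, 3755 and 3169 CPM in SG-like cells in the order of the 6 time points, 0 h to 6 d. The 95% interval was 2473 to 2548 CPM for the lowest library, 16 h, and 3877 to 3989 CPM for the highest, 2 d. Its level in the next class, the interfollicular suprabasal (IFE suprabasal)-like cells, was 138, 49.95, 149, 96.3, 139 and 122 CPM, and the ranges of the 2 classes did not overlap. Elovl6 stood at 2050.2, 2290.3, 2073, 4603, 3827 and 3596 CPM in SG-like cells, with an interval of 1853 to 2263 CPM at 0 h and 4542 to 4664 CPM at 2 d. The 3 libraries up to 16 h were thus the 3 lowest for Elovl6, and at 2 d its level was 2.01 times that at 4 h (95% counting interval 1.96 to 2.06). Elovl3 stood at 177, 430.2, 451, 710.5, 664 and 485 CPM in SG-like cells, again highest at 2 d, with an interval of 687 to 735 CPM there.

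Outside the SG, Elovl3 was at the background. T cell-like cells held 0, 0, 0, 8.9, 2.1 and 1.26 CPM, and their interval at 0 h reached up to 6.47 CPM, while upper follicle suprabasal-like cells held 0.283, 0.419, 3.23, 4.11, 1.89 and 1.11 CPM. In each of the 5 keratinocyte classes other than the SG, Elovl3 was highest in the 2 d library, which is also the library with its highest SG level and its highest T cell-like level. Scd1 and Elovl4 were also highest at 2 d in the T cell-like cells, with 62.3 CPM and 36.7 CPM at 2 d against 10.5 to 24.4 CPM and 5.67 to 21.4 CPM in the other libraries. No Elovl3 difference outside the SG is therefore read as expression.

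Shares of cells with a UMI were compared after each cell had been thinned to 2000 UMIs, which kept 13, 237, 307, 395, 645 and 279 of the SG-like cells. The median depth before thinning was 10809 UMIs in SG-like cells and 2193 UMIs in the larger T cell-like cluster. Elovl6 was then found in 46.2, 35.4, 42.02, 52.9, 48.99 and 50.5% of SG-like cells in the order of the libraries, against 58.2% to 84.6% before thinning. Scd1 was found in 69.2, 46.8, 51.5, 54.7, 61.1 and 60.9%, against 72.8% to 100% before thinning, and Elovl3 in 7.69, 15.6, 24.1, 28.4, 24.7 and 21.9%, against 15.4% to 44.98%. The thinned Elovl3 share in T cell-like cells was 0% to 1.18%. No library had all of its SG-like cells positive for any of these genes after thinning.

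The SG levels came from a minor population within the gland. At a finer resolution the class fell into a sub-cluster led by Fa2h and Cidea, genes of sebum lipids and lipid droplets, and a larger sub-cluster led by Akr1c18 with Pparg, the regulator of sebocyte differentiation. In the libraries from 4 h on, the Cidea and Fa2h sub-cluster made up 25.9% to 29.3% of the SG-like cells and held 92.3% to 94.3% of their Scd1 UMIs, 94.1% to 97.0% of their Elovl6 UMIs, 96.5% to 99.1% of their Elovl3 UMIs and 95.8% to 99.6% of their Elovl4 UMIs. In the same 5 libraries Scd1 was at 7610.1, 7132, 9403, 7944 and 7303 CPM there and at 352, 262, 371, 425 and 406 CPM in the Akr1c18 and Pparg sub-cluster. Elovl6 was at 5561, 5962, 11228, 8312 and 8608 CPM against 117, 181, 289.9, 262 and 246 CPM, and Elovl3 at 1068, 1333, 1739, 1461 and 1171 CPM against 6.59, 21.9, 40.9, 29.9 and 26.1 CPM. The ranges of the sub-clusters did not overlap for any of the 3 genes. The 2 d to 4 h ratio of Elovl6 was as large inside the Cidea and Fa2h sub-cluster, 2.02 with a counting interval of 1.97 to 2.07. At 0 h the sub-cluster held 2 cells, too few for a level.

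**Figure D2:**
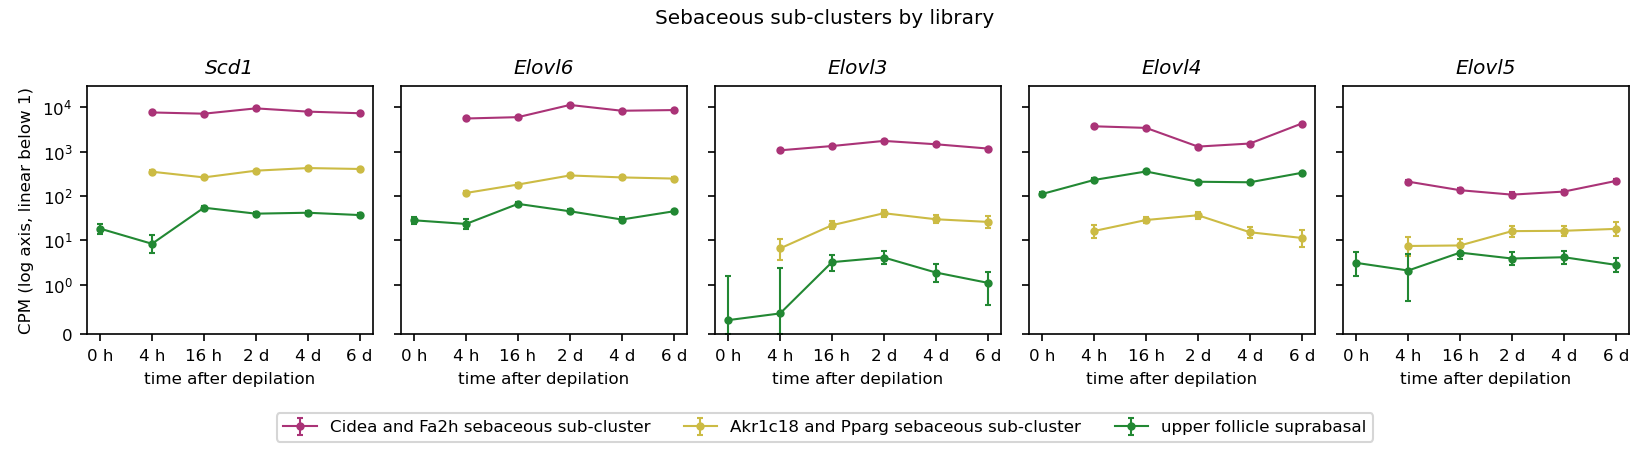
CPM (log axis, linear below 1) of 5 genes in the 2 sebaceous sub-clusters and in upper follicle suprabasal cells by time after depilation; points are libraries with at least 20 cells and bars are exact Poisson 95% intervals. The Cidea and Fa2h sub-cluster lies above the Akr1c18 and Pparg sub-cluster in every library, and for Elovl4 the latter lies under the upper follicle suprabasal cells.

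Elovl4 was spread differently over the same cells. In SG-like cells it was at 0, 1491, 1138, 533, 681 and 1725 CPM. The 0 h library had 0 UMIs, which with 13 cells allows up to 19.2 CPM at the upper 95% bound, and the 2 d level was 0.358 times that at 4 h (counting interval 0.341 to 0.375). Its lowest libraries from 4 h on, 2 d and 4 d, were those in which Elovl6 was highest. In the Cidea and Fa2h sub-cluster most cells had none: 342 of 523 cells had no Elovl4 UMI, and 72 cells with more than 20 Elovl4 UMIs per 10000 of their UMIs held 96.2% of all its UMIs. These 72 cells were 17 of 62 cells at 4 h, 18 of 83 at 16 h, 11 of 107 at 2 d, 16 of 190 at 4 d and 10 of 79 at 6 d, or 27.4%, 21.7%, 10.3%, 8.42% and 12.7%. The limit of 20 was set after the values had been seen, and 39 cells lay between 10 and 40, so the 72 cells are a range and not a cell type. After thinning to 2000 UMIs the median Elovl4 count of the sub-cluster was 0 in each of the 5 libraries, against medians of 9 to 20 for Elovl6 and 12 to 15 for Scd1.

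**Figure D3:**
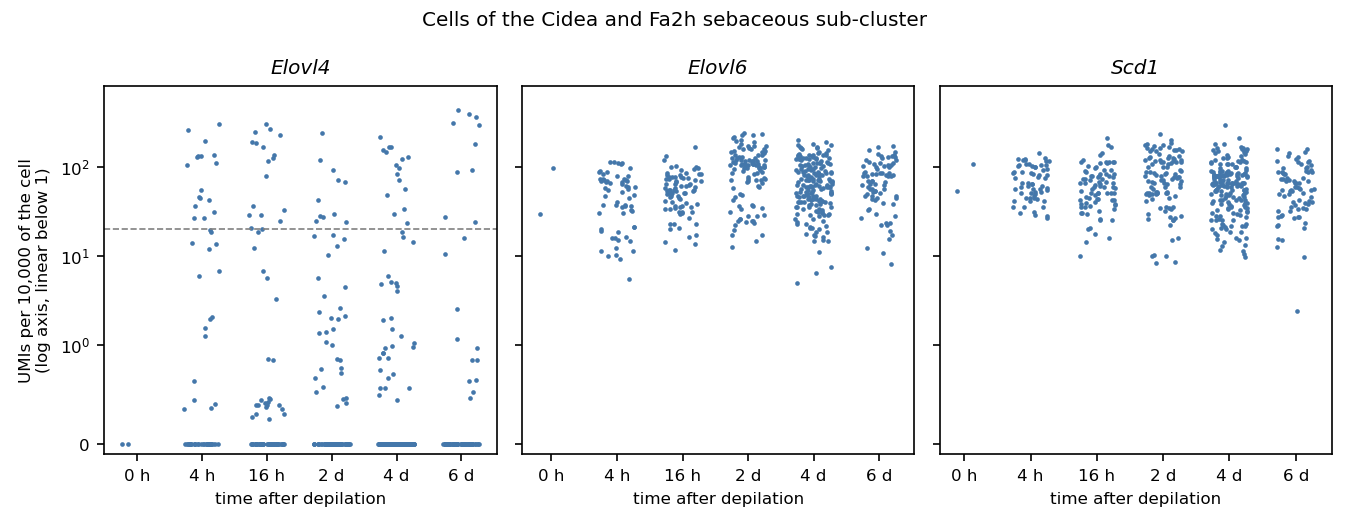
UMIs per 10000 of single cells of the Cidea and Fa2h sebaceous sub-cluster (log axis, linear below 1) by time after depilation, for Elovl4, Elovl6 and Scd1; each point is 1 of 523 cells and the dashed line marks 20. Elovl4 runs from 0 in 342 cells to 430.7 at 6 d, while all 523 cells hold Elovl6 and Scd1 UMIs.

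The cells above the limit also held higher levels of Elovl3, Elovl5, Elovl6, Elovl7 and Scd1, but not of Elovl1. Pooled over the libraries, Elovl3 was at 2631 CPM above it and 1052 CPM below it, Elovl5 at 471 and 63.5 CPM, Scd1 at 12436 and 6714 CPM and Elovl6 at 10456 and 7266 CPM. Elovl7 was at 29.0 CPM above it, from 58 UMIs, and at 3.19 CPM below it, from 24 UMIs. Elovl1 was at 3.996 CPM above it, from 8 UMIs, and at 10.5 CPM below it, from 79 UMIs. Scd2 was at 12.0 and 3.99 CPM, but 23 of its 24 UMIs above the limit came from the 6 d library. The median depth of the cells above the limit was higher as well, 28574.5 against 15235 UMIs per cell. Ranked by fold over all genes, the leading genes of the cells above the limit were Cyp4f39, the omega-hydroxylase of ultra-long fatty acids, at 274 against 7.22 CPM, then Pnpla5, C130079G13Rik, and Awat1, a wax ester synthase, at 331 against 13.2 CPM. Akr1c18, the leading gene of the other sub-cluster, was at 10.5 against 359 CPM. Lor and Krt10, markers of the suprabasal epidermis, where Elovl4 is also high, were at 14.0 and 44.5 CPM above the limit and at 18.2 and 81.6 CPM below it. Markers of the upper follicle suprabasal-like class, where Elovl4 is high as well, were mixed. Among them Ly6g6c stood at place 5 of the ranking by fold, at 2021 CPM above the limit against 115 CPM below it. Krt79 was at 2962 against 2121 CPM, and Cst6 at 79.4 against 85.6 CPM. These are values of cells chosen by their Elovl4 count, and no test was run on them.

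Elovl5 was present in both the SG and immune cells. It was at 46.8, 88.4, 49.3, 52.01, 64.8 and 98.1 CPM in SG-like cells and at 99.9, 88.5, 66.2, 101, 44.1 and 78.2 CPM in T cell-like cells, and the 2 ranges overlapped. In the same order of libraries its level over all cells was 6.85, 9.18, 10.2, 12.2, 16.5 and 11.6 CPM, lower than in T cell-like cells in each library, so its immune level was not background. Elovl6 was present in T cell-like cells as well, at 112, 216, 101, 121, 62.5 and 88.3 CPM, against 4.26 to 21.9 CPM in Langerhans cell-like cells.

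Tests between cell types used 1 sum per library and class, with the library as a block, in edgeR's quasi-likelihood test over all genes. Each comparison thus pairs libraries of different time points, and its spread includes the changes over time. The 10 genes had no part in the clustering, though the classes were drawn from the same cells. Between SG-like and basal keratinocyte-like cells (5 libraries, without 0 h), 9 members passed the filter on low counts. Elovl3 was higher by a log2 fold change of 9.07 ± 0.46 (SE), Elovl6 by 7.29 ± 0.20, Elovl4 by 6.87 ± 0.58, Scd1 by 6.78 ± 0.40 and Elovl5 by 3.72 ± 0.32, with adjusted p from 6.1e-08 to 3.28e-05. Elovl7 and Elovl1 were lower, by −2.74 ± 0.21 and −1.38 ± 0.14. Scd2 (−1.46, 95% interval −2.75 to −0.17, adjusted p = 0.0593) and Fads1 (−1.23, −2.49 to 0.02, adjusted p = 0.0937) did not pass. Scd2 was called in edgeR without the 4 h library (−1.58, adjusted p = 0.042) and without the 6 d library (−2.16, adjusted p = 0.0206), with doubled doublet removal (−1.89, adjusted p = 0.0188) and without the robust option (−1.46, adjusted p = 0.0478). So 5 of 9 members were higher where 22.6% of all 13027 genes were, and 2 were lower where 27.9% were. Their median log2 fold change was 3.72 against −0.06 over all genes. Elovl3 and Elovl4 in basal keratinocyte-like cells were at or near their T cell-like levels, and basal Scd1 was under its T cell-like level at 4 h and 2 d. The denominators of these folds are thus not set clearly apart from free RNA.

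Against the upper follicle suprabasal-like cells, from the follicle part that adjoins the gland, 8 members passed the filter and 5 were higher in SG-like cells, where 31% of 11991 genes were. Elovl3 differed by 7.72 ± 0.30, Scd1 by 6.35 ± 0.42, Elovl6 by 6.08 ± 0.32, Elovl5 by 3.88 ± 0.27 and Elovl4 by 1.74 ± 0.22. The other 3, Elovl7 (−4.16), Scd2 (−4.0) and Elovl1 (−2.99), were lower in SG-like cells, where 30.6% of genes were. With doubled doublet removal, Elovl4 was no longer called (1.18, edgeR adjusted p = 0.279). Scd1 and Scd2, whose products are of the same kind, thus differed in opposite directions in this pair of classes.

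**Figure D4:**
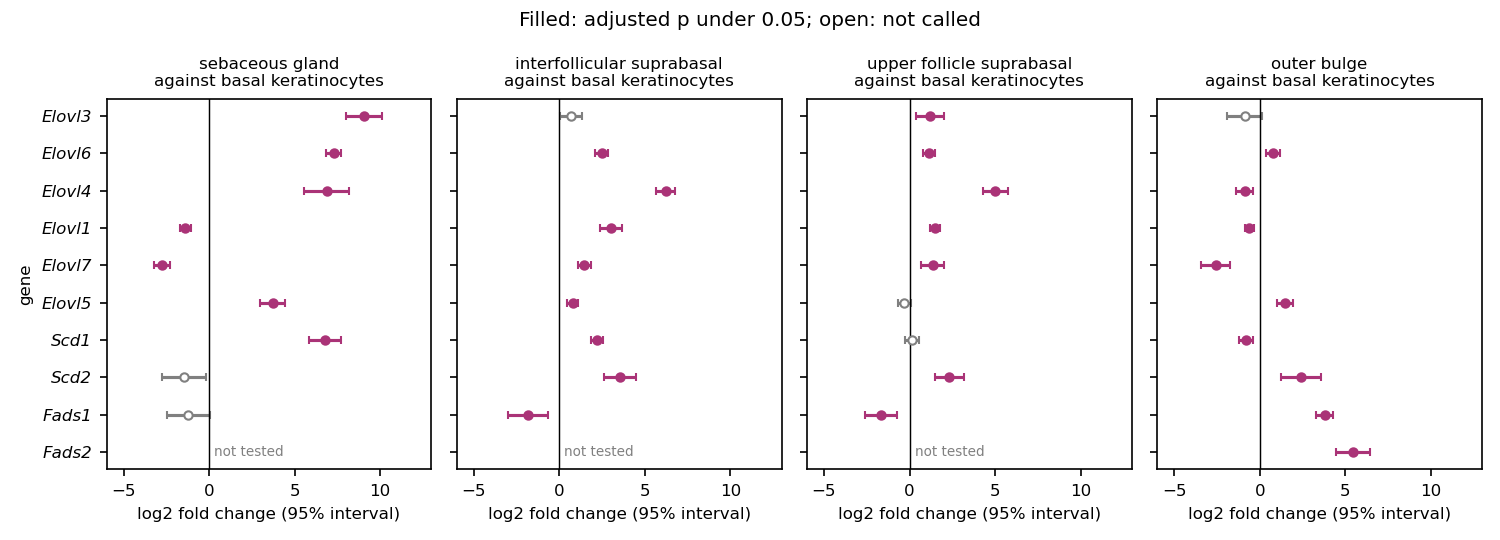
Log2 fold change with its 95% interval for each gene in 4 comparisons of cell types against basal keratinocytes, from edgeR's quasi-likelihood test with the library as a block; filled points have an adjusted p under 0.05. Elovl3, Elovl6, Elovl4 and Scd1 lie above 6 in the sebaceous gland, Elovl4 leads in both suprabasal classes, and Fads1 and Fads2 lead in the outer bulge. Fads2 passed the filter on low counts only in the outer bulge comparison.

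Elovl1 and Elovl4 were high in the differentiating epidermis. In IFE suprabasal-like cells Elovl4 was at 503, 359.7, 582, 559, 351 and 499.6 CPM and Elovl1 at 602, 302, 350.3, 256, 197 and 467 CPM. The intervals were narrow, 593 to 612 CPM for the highest Elovl1 level and 186 to 208 CPM for the lowest. The granular cluster, led by Lor, Flg2 and Lce1 genes, carried most of this. There Elovl1 was at 1123, 528, 776, 529.6, 353 and 895 CPM, against 65.5, 149, 125, 94.2, 73.1 and 83.9 CPM in the spinous cluster led by Krt1 and Krt10. Elovl4 was at 809, 516, 878, 902, 579 and 738 CPM in the granular cluster against 187, 254, 426, 357, 170.3 and 286 CPM in the spinous cluster. Granular cells stood above spinous cells in 6 of 6 libraries for both genes, though their median depth was also greater, 32011 against 10059 UMIs. After thinning, 67.9% to 80.6% of granular and 23.7% to 49.1% of spinous cells held an Elovl4 UMI (unthinned 92.2% to 99.1% and 50.4% to 82.7%), against 1.22% to 5.44% of T cell-like cells.

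Against basal keratinocyte-like cells, 9 members were tested in IFE suprabasal-like cells over 6 libraries. Of these 7 were higher, where 29.9% of 13805 genes were: Elovl4 by 6.24 ± 0.24, Scd2 by 3.54 ± 0.42, Elovl1 by 3.02 ± 0.29, Elovl6 by 2.47 ± 0.17, Scd1 by 2.22 ± 0.15, Elovl7 by 1.47 ± 0.16 and Elovl5 by 0.79 ± 0.14. Adjusted p ran from 2.48e-07 for Elovl4 to 0.00114 for Elovl5. Without the library block Elovl7 was not called (1.22, edgeR adjusted p = 0.093). Fads1 was lower by −1.81 ± 0.52 (adjusted p = 0.0131), at levels under 2 CPM in both classes, where 34.5% of genes were lower. Elovl3 (0.68, 95% interval 0.02 to 1.33, adjusted p = 0.0659) did not pass, but was called in edgeR without the 4 h library (0.82, adjusted p = 0.0208).

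The upper follicle suprabasal-like cells, marked by Krt79 and Cst6, showed a weaker form of the same pattern. Here 6 of 9 members were higher than in basal keratinocyte-like cells, where 23.4% of 13328 genes were. Fads1 was lower (−1.66 ± 0.43), where 27.9% were, but its basal keratinocyte-like level was itself very low, so this call rests on few UMIs. Elovl4 led with 5.01 ± 0.31, followed by Scd2 with 2.34 ± 0.37, Elovl1 with 1.49 ± 0.13, Elovl7 with 1.35 ± 0.28 and Elovl6 with 1.15 ± 0.16. The sixth, Elovl3 (1.19 ± 0.37, adjusted p = 0.0181), lay between 0.283 and 4.11 CPM and thus within the T cell-like range given above. Scd1 (0.15, 95% interval −0.28 to 0.58) and Elovl5 (−0.30, −0.66 to 0.06) did not pass. Single libraries decided both Elovl3, which was not called in edgeR without the 16 h library (0.74, adjusted p = 0.079) or without the 6 d library (1.12, adjusted p = 0.0546), nor with doubled doublet removal (0.53, adjusted p = 0.147), and Scd1, which was called without the 0 h library (0.34, adjusted p = 0.0476). Without the library block 3 of the members were called here, in place of 7.

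Elovl7 had its highest level at 4 h in all 5 keratinocyte classes other than the SG. In basal keratinocyte-like cells it was at 37.02, 194, 44.9, 41.7, 27.2 and 33.8 CPM, with an interval of 189.9 to 199 CPM at 4 h, 5.25 times the 0 h level (counting interval 4.95 to 5.58). IFE suprabasal-like cells stood at 71.3, 296, 123, 124, 70.6 and 86.1 CPM, a ratio of 4.16 between 4 h and 0 h, and upper follicle suprabasal-like cells at 49.5, 243, 156, 124, 95.2 and 103 CPM, a ratio of 4.91. The lower ratios were those of the outer bulge-like cells, 2.15 (1.30 to 3.69), and the companion layer-like cells, 2.69 (1.29 to 6.00). The companion layer-like class had 109 and 114 cells at 0 h and 4 h. A finer sub-cluster led by Pinlyp, with all 6 companion layer markers, had 0 cells in both libraries. A sub-cluster led by Sncg and Fgf18, with 5 of 6 inner bulge markers, had 110 and 129. The 4 h to 0 h ratios of this class, here and below, are thus not those of Pinlyp cells. The outer bulge-like class changed its makeup between these libraries: a sub-cluster led by Anxa3 and Krt8 held none of its cells at 0 h, but 58.8% in the 4 h library and 42.02% in the 16 h library, and at most 0.85% later. Elovl7 was at 34.9 CPM in that sub-cluster at 4 h, against 14.3 CPM in the sub-cluster led by Krt24 and Cd34, where the 4 h to 0 h ratio was 1.65 with an interval of 0.716 to 3.79. Thinned shares had the same order at the top: 6.63, 32.00, 8.47, 7.66, 5.47 and 6.45% of basal keratinocyte-like cells held an Elovl7 UMI, against 24.9, 74.7, 37.02, 26.4, 14.99 and 19.9% unthinned and 0% to 1.18% of T cell-like cells. SG-like cells, with 10.4, 42.6, 10.5, 6.03, 1.83 and 5.43 CPM, were highest at 4 h as well.

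Elovl1 was highest at 4 h in 4 of these 5 classes. Basal keratinocyte-like cells held 46.4, 95.7, 53.1, 43.97, 33.3 and 43.8 CPM, a ratio of 2.06 between 4 h and 0 h (1.94 to 2.19), and upper follicle suprabasal-like cells a ratio of 3.57 (3.11 to 4.10). IFE suprabasal-like cells went the other way, at 0.502 (0.487 to 0.518). Its 2 clusters went in opposite directions: the spinous cells went from 65.5 to 149 CPM between the 0 h and 4 h libraries, and the granular cells went from 1123 to 528 CPM. The granular cluster held 302 of the 1434 cells of the class at 0 h and 212 of 1232 at 4 h, and the part of this makeup was not tested.

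Scd1 and Elovl5 were lowest at 4 h in each of the 5 classes. For Elovl5 some of these minima rest on few UMIs, as 3.06% of 98 elongase UMIs in companion layer-like cells at 4 h. In an outer bulge sub-cluster led by Col14a1, Elovl5 made up 17.2% of 58 elongase UMIs at 4 h and 11.1% of 27 at 0 h. The part of the changed outer bulge makeup in its minimum was not tested. In basal keratinocyte-like cells Scd1 was at 36.6, 7.36, 32.7, 40.7, 40.4 and 32.04 CPM, and the 4 h level was 0.201 times that at 0 h (0.175 to 0.230). The 4 h value is under the 12.5 CPM of T cell-like cells in the same library, and the 2 d value, 40.7 CPM, under their 62.3 CPM. T cell-like cells are shallower, with a median of 2214.5 UMIs against 8739 at 4 h, so their CPM is not a common measure of free RNA. At 4 h 4033 basal keratinocyte-like cells held 264 Scd1 UMIs and 392 T cell-like cells 11. At 2 d 4161 held 1356 and 820 held 112. Whether basal Scd1 RNA stood above the background in these libraries was not tested. At 6 d the basal level was above the T cell-like one but under the 39.5 CPM of Langerhans cell-like cells. In the 0 h, 16 h and 4 d libraries it stood above both immune levels. The cluster led by Thbs2 held most of the basal Scd1, at 44.4, 7.7, 38.1, 44.4, 52.4 and 42.9 CPM, against 8.41, 5.02, 13.2, 27.6, 23.1 and 17.5 CPM in the cluster with the upper follicle marker Sostdc1. In IFE suprabasal-like cells the 4 h to 0 h ratio of Scd1 was 0.363 (0.337 to 0.390), in upper follicle suprabasal-like cells 0.455 (0.261 to 0.761) and in outer bulge-like cells 0.486 (0.271 to 0.861). The companion layer-like cells gave 0.365 with an interval of 0.036 to 2.04, which does not set the libraries apart. The 4 h levels of the last 3 classes, 8.37, 7.73 and 4.01 CPM, also lay under the 12.5 CPM of T cell-like cells. Of the 5 classes only the IFE suprabasal-like one, at 49.95 CPM, stood above that T cell-like level at 4 h. Within the outer bulge-like class the Krt24 and Cd34 sub-cluster gave a ratio of 0.791 (0.365 to 1.61), which does not set the libraries apart, and the Anxa3 and Krt8 sub-cluster, absent at 0 h, was at 4.21 CPM at 4 h. In SG-like cells Scd1 was not lowest at 4 h.

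**Figure D5:**
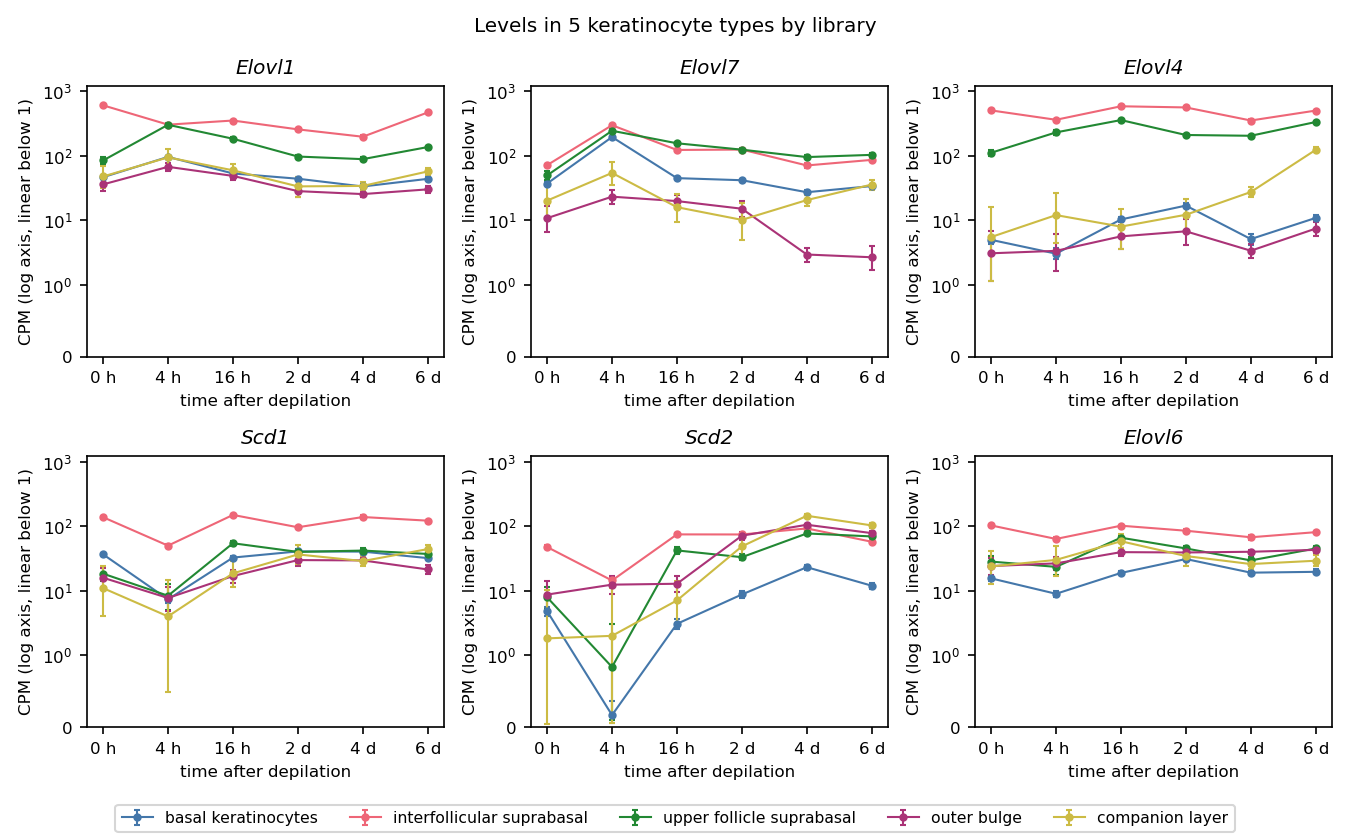
CPM (log axis, linear below 1) of 6 genes in 5 keratinocyte classes by time after depilation; each point is 1 library and bars are exact Poisson 95% intervals. Elovl7 peaks at 4 h in each class, Scd1 is lowest at 4 h in each class, and Scd2 is highest at 4 d in each class.

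Scd2 was highest at 4 d in all 5 keratinocyte classes other than the SG. The outer bulge-like class, which includes hair follicle stem cells among others, stood at 8.72, 12.4, 12.8, 71.3, 105 and 78.1 CPM. Its intervals were 8.75 to 17.1 CPM at 4 h and 101 to 109.7 CPM at 4 d, a ratio of 8.46 (6.12 to 12.1). The 3 libraries up to 16 h lay between 8.72 and 12.8 CPM and the 3 later ones between 71.3 and 105 CPM, without overlap. The change in makeup of this class went with it: the Anxa3 and Krt8 sub-cluster held 0 Scd2 UMIs at 4 h, and the sub-cluster led by Col14a1 went from 11.1% of the class at 4 h to 68.6% at 4 d. In the Col14a1 sub-cluster Scd2 was at 20.1, 65.5, 28.5, 71.9, 108 and 78.3 CPM, a 4 d to 4 h ratio of 1.65 (1.14 to 2.49), and its 4 h interval, 43.5 to 94.6 CPM, overlapped those of 2 d and 6 d. In the Krt24 and Cd34 sub-cluster it was at 6.17, 3.29, 7.8, 42.4, 77.6 and 68.01 CPM, with the 3 later libraries again above the 3 earlier ones. The companion layer-like class stood at 1.83, 2.0, 7.09, 48.7, 145 and 103 CPM, but its makeup changed. The Pinlyp sub-cluster counted 0, 0, 4, 67, 635 and 311 cells. The Sncg and Fgf18 sub-cluster, with inner bulge markers, counted 110, 129, 230, 138, 225 and 346. At 4 d the former held 678 Scd2 UMIs and the latter 22. The part of this makeup in the class levels was not tested. The inner root sheath and matrix-like class, with 227 cells at 4 d and 47 at 6 d only, held 161 and 146 CPM. A finer sub-cluster led by Krt28 and Krt25, with all 9 markers of that class, counted 4, 2, 5, 35, 777 and 141 cells. At 4 d most of them thus lay outside the class. The Col14a1, Krt24 and Cd34, and Anxa3 and Krt8 sub-clusters made up 68.6%, 10.8% and 0.111% of the outer bulge-like class at 4 d. Its remaining cells were not assigned, so its 4 d levels may include Krt28 and Krt25 cells. Basal keratinocyte-like cells stayed lower, at 4.83, 0.167, 3.07, 8.76, 23.2 and 11.98 CPM, with 6 UMIs in all at 4 h. The granular cluster of the epidermis stood above the outer bulge-like class in 6 of 6 libraries, with 88.1, 33.9, 134, 156, 170.4 and 102 CPM.

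Scd2 was also present in T cell-like cells, at 85.9, 61.2, 78.4, 82.9, 73.5 and 68.1 CPM, where it varied less between libraries than in the outer bulge. Langerhans cell-like cells held 30.2, 32.6, 49.9, 45.7, 68.1 and 33.9 CPM and were thus also highest at 4 d. The basal keratinocyte-like levels lay under both immune levels in each library. The thinned share of outer bulge-like cells with a Scd2 UMI was 0.898, 1.38, 2.25, 11.1, 19.7 and 13.4% (unthinned 4.79, 2.88, 8.06, 34.9, 51.5 and 33.1%), below the T cell-like share of 10.6% to 16.8% up to 16 h and at or above the lower end of it from 2 d on. In SG-like cells Scd2 was at 0, 1.05, 0.443, 2.08, 4.0 and 13.9 CPM, so Scd1 made up at least 99.6% of the summed Scd1 and Scd2 UMIs there. The Scd1 part was 63.6% to 97.8% in basal keratinocyte-like cells, 56.4% to 77.6% in IFE suprabasal-like cells and 21.5% to 64.6% in outer bulge-like cells. The basal maximum is the 4 h library, from 264 Scd1 and 6 Scd2 UMIs, where both genes lay under their T cell-like levels. Free RNA was not subtracted from these parts.

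Fads1 and Fads2, the paired desaturases of polyunsaturated fatty acids, had their highest levels in non-epithelial cells, and in the epithelium in the outer bulge-like and the inner root sheath and matrix-like cells. In outer bulge-like cells Fads1 was at 10.3, 1.34, 9.46, 8.99, 21.6 and 17.9 CPM and Fads2 at 0.513, 0.672, 0.901, 6.1, 15.7 and 11.4 CPM. The interval of Fads2 was 0.0814 to 2.43 CPM at 4 h, from 2 UMIs, and 14.04 to 17.5 CPM at 4 d. Both were highest at 4 d, and the 4 d to 4 h ratios were 16.1 (6.24 to 59.3) and 23.3 (6.41 to 193.5). Inner root sheath and matrix-like cells, at 4 d and 6 d, held 9.54 and 7.82 CPM of Fads1 and 11.4 and 10.4 CPM of Fads2. Basal keratinocyte-like cells held at most 1.75 CPM of Fads1 and 0.322 CPM of Fads2. Within the outer bulge class the sub-cluster led by Col14a1 carried Fads2, at 3.35, 2.34, 3.67, 5.49, 19.6 and 16.2 CPM, whereas the sub-cluster led by Krt24 and Cd34 held 1 Fads2 UMI at 2 d and 0 in the other libraries. Fads1 was at 30.1, 9.35, 23.9, 9.34, 24.997 and 23.2 CPM in the Col14a1 sub-cluster, highest at 0 h from 9 UMIs, and the 4 d to 4 h ratios there were 2.67 (1.03 to 9.86) for Fads1 and 8.38 (1.49 to 332) for Fads2. The Anxa3 and Krt8 sub-cluster, 58.8% of the class at 4 h, held 0 Fads1 UMIs and 1 Fads2 UMI in that library. In the order of the libraries the Col14a1 sub-cluster counted 45, 69, 116, 198, 1852 and 821 cells and the whole outer bulge-like class 334, 624, 583, 370, 2699 and 1412, and the part of this makeup in the class levels was not tested.

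Outside the epithelium, Fads1 was at 60.4, 48.2, 74.9, 56.2, 82.7 and 58.3 CPM in Langerhans cell-like cells and 13.1, 30.8, 38.3, 23.4, 31.7 and 25.6 CPM in melanocyte-like cells, and at 125 and 34.9 CPM in dermal papilla and fibroblast-like cells at 4 d and 6 d. Fads2 was at 21.03, 17.01, 22.7, 20.6, 38.8 and 23.96 CPM in T cell-like cells. In the order of median levels the fibroblast-like cells came first for both genes, but over 2 libraries only.

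Against basal keratinocyte-like cells all 10 members were tested in outer bulge-like cells, and 5 were higher, where 14.6% of 14321 genes were. Fads2 led with 5.44 ± 0.43 (edgeR adjusted p = 8.25e-05), then Fads1 with 3.79 ± 0.21, Scd2 with 2.42 ± 0.51, Elovl5 with 1.48 ± 0.20 and Elovl6 with 0.78 ± 0.18. Fads2 did not pass the filter on low counts in any other comparison of cell types. It was tested here only through its outer bulge-like counts, so its place among the 5 follows from its level in that class. The denominator of its fold is the very low basal keratinocyte-like level given above. Lower were Elovl7 by −2.57 ± 0.36, Elovl4 by −0.88 ± 0.22, Scd1 by −0.80 ± 0.17 and Elovl1 by −0.62 ± 0.12, that is 4 of 10 members where 12% of genes were lower. Elovl4 lay under the T cell-like level of the same library in both classes in 6 of 6 libraries, at 3.08 to 7.44 CPM and 3.04 to 16.9 CPM. Its call thus compares 2 levels under the T cell-like one. T cell-like cells are shallower, and whether either class stood above the background was not tested. Scd1 in outer bulge-like cells lay under the T cell-like level at 4 h, 16 h and 2 d. Elovl3 (−0.89, 95% interval −1.91 to 0.14) did not pass. The median over the members, 0.08, was close to the 0.03 of all genes, since members differed in both directions. Elovl6 was not called in edgeR without the 16 h, 4 d or 6 d library (0.64, 0.68 and 0.66, adjusted p = 0.0591, 0.0622 and 0.0654). At doubled clustering resolution neither Elovl6 (0.22, edgeR adjusted p = 0.503) nor Elovl4 (−0.51, edgeR adjusted p = 0.107) was called. There a cluster of 3801 cells led by Col14a1 took the name inner root sheath and matrix, on 4 of 9 markers. The outer bulge-like class kept 476 cells at 4 d, against 2699 in the main setting. That setting thus compares another population, and the name of the Col14a1 cells depends on the resolution. Without the library block 4 were called, in place of 9.

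The changes over time were tested with a spline of hours within each class, in edgeR's quasi-likelihood test with 1 sum per library, which leaves 2 residual degrees of freedom. No member was called in any of 7 classes. The share of all genes called was 0% in basal keratinocyte-like, IFE suprabasal-like and upper follicle suprabasal-like cells, 0.0177% in outer bulge-like cells, 0.0514% in T cell-like cells and 5.44% in melanocyte-like cells. It was 0% in SG-like cells too, in a fit set up after the cell counts were seen because the 0 h library has 13 of these cells. By edgeR's unadjusted p, 3 members of outer bulge-like cells were under 0.05, among 1140 genes of that class, namely Fads2 (edgeR adjusted p = 0.127), Scd2 (edgeR adjusted p = 0.132) and Elovl7 (edgeR adjusted p = 0.212). DESeq2 called 3 members in outer bulge-like cells, with 602 genes in all, and 0 members in the other 6 classes. Elsewhere the members under an unadjusted p of 0.05 were Elovl7 and Scd2 in SG-like cells, Elovl3 in each of the basal, IFE suprabasal and upper follicle suprabasal-like classes, Elovl6 and Scd2 in melanocyte-like cells and Scd1 in T cell-like cells. The 4 h maximum of Elovl7 rests on the counts of a single library. Its change over time was called in basal keratinocyte-like cells without the 0 h library (edgeR adjusted p = 8.95e-05), in outer bulge-like cells with DESeq2, on both other time scales and without the 0 h or the 4 h library, and in no other setting of the 5 classes tested for it.

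The outer bulge result depended on the time scale and on single libraries. With log2(hours + 1) or with the rank of the time point in place of hours, 3 members were called, among 1332 and 952 genes. Without the 0 h library 6 members were called, among 2599 genes, without the 4 h library 3, without the 2 d library 2 and without the 6 d library 1.

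The other genes of the pathway were counted from a list of 53 genes. In SG-like against basal keratinocyte-like cells, 47 were tested, and 30 were higher, where 22.6% of all genes were, and 5 lower, where 27.9% were. All 8 tested genes of fatty acid synthesis and all 5 of the elongation cycle after condensation were higher, among the latter Hacd2 (4.35), Hsd17b12 (3.4) and Tecr (2.71), which carry out dehydration and reduction steps. The largest differences were those of Cers4, a ceramide synthase, at 8.28, Acacb, an acetyl-CoA carboxylase, at 7.51 and Scd3 at 6.31. Lower were Cers3, the ceramide synthase of ultra-long chains, at −4.85, Ugcg, the glucosylceramide synthase, at −3.83 and Acsl1, an acyl-CoA synthetase, at −2.15. Against upper follicle suprabasal-like cells 27 of 49 were higher in SG-like cells and 13 lower, where 31% and 30.6% of all genes were, led by Cers4 (7.01), Acacb (6.56) and Scd3 (4.84) and by Scd4 (−8.05), Alox12b (−6.84) and Ugcg (−6.75).

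In IFE suprabasal-like against basal keratinocyte-like cells 31 of 47 list genes were higher and 7 lower, where 29.9% and 34.5% of all genes were. Of the 12 ceramide and acylceramide genes 9 were higher, led by Alox12b (6.46), the lipoxygenase of acylceramides, and Cyp4f39 (6.42), and all 8 tested genes of fatty acid synthesis were higher, with Me1 at 4.60. Cers2 (−3.01), Acsl4 (−2.87) and Mlxipl (−2.03) led the lower ones. Upper follicle suprabasal-like cells had 28 of 46 higher and 5 lower, where 23.4% and 27.9% of all genes were, led by Scd4 (6.57), Cyp4f39 (5.27) and Alox12b (4.65) and by Hacd1 (−1.28), Acsl3 (−0.68) and Cers6 (−0.57). In outer bulge-like cells 7 of 47 were higher, a share near the 14.6% of all genes, and 10 lower, where 12% of all genes were, with Degs2 (4.01), Cers4 (3.23) and Fads6 (2.70) on the one side and Pnpla1 (−2.04), Acsl1 (−1.64) and Acsl4 (−1.19) on the other. Over time, 1 list gene was called, Slc27a1 in melanocyte-like cells (adjusted p = 0.00138), and 0 in the other 6 classes.

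The genes most like each member were ranked over 57 sums of a cell type in a library, by Pearson's r of log2(CPM + 1) among 11559 genes. This is a description, since the sums of a type share their cells' identity and those of a library its preparation. Elovl3 was most like Far2 (r = 0.951), Adig (0.940) and Cd36 (0.939), and Scd1 like Pank1 (0.896), Slc25a1 (0.892) and Far2 (0.872). Elovl6 was most like Acacb (0.884), Clstn3 (0.873) and Panx3 (0.870). Elovl4 was most like Acer1 (0.939), Sdr16c6 (0.893) and Cyp4f39 (0.891), Elovl1 like Acsl1 (0.825), Trex2 (0.801) and Sdr9c7 (0.80), and Elovl7 like Lypd3 (0.881), Rab10 (0.875) and Ppl (0.872). Fads1 was most like Lgals1 (0.929), Cfap36 (0.892) and Arhgap31 (0.890), and Fads2 like Eid2 (0.931), Lgals1 (0.875) and Myef2 (0.874). The weakest leaders were those of Elovl5, Abhd16a (0.766), Ctnnd2 (0.759) and Elmo1 (0.751), and of Scd2, Palm (0.723), Sesn3 (0.695) and Gnb2 (0.680).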

How the data were processed

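Per the labels, alignment and counting by the authors used Cell Ranger 6.1.2 and mm10, and the authors deposited filtered matrices of raw UMI counts per gene and barcode; the annotation release, the treatment of intronic reads and the strand setting are not given in the sources used here. Cells with 500 to 7000 detected genes and at most 10% mitochondrial UMIs were kept, and the cells with the highest Scrublet scores (scanpy 1.11.5), 0.8% per 1000 barcodes, 4675 in all, were removed as doublets. Libraries were integrated on 2000 variable genes and 30 principal components and clustered at resolution 0.2 with Seurat 5.3.0, without the 10 members, the 53 lipid genes and 441 cell cycle genes, and clusters were named from a fixed marker list when at least 3 markers were higher. UMI counts were summed per library and class, for classes with at least 20 cells, and tested with edgeR 4.0.16 (TMM, filterByExpr, robust quasi-likelihood fit, Benjamini-Hochberg adjustment over all genes tested, adjusted p under 0.05), after the scripts had been tested on simulated data. DESeq2 1.42.0 was an alternative. Intervals of levels are exact Poisson and those of shares exact Clopper-Pearson intervals at 95%. All 10 members are named. Of the lipid list, up to 3 called genes with the largest change per direction and comparison are named, and for each member the 3 genes most like it. The members and lists were chosen with earlier results of these data known, and the sub-clusters and the Elovl4 limit after the values had been seen.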

Additional observations from a re-analysis of the deposited data

How the results depend on the processing

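Between cell types, 581 of 608 member values kept direction and side of the threshold under the alternatives (other size factors, no filter, DESeq2, no library block, each library left out, more doublets removed, deeper cells only, doubled resolution, no robust option), 18 lost and 6 gained a call, and 3 turned direction, with no call at either value. These were Scd1 in upper follicle suprabasal-like against basal keratinocyte-like cells (0.15), at −0.00869 without 16 h, 0.339 without 0 h, where it was called, and −0.0292 with doubled doublet removal, and Elovl3 in outer bulge-like cells (−0.89), at 0.238 at doubled resolution. Without the library block 3 members in place of 7 were called in upper follicle suprabasal-like and 4 in place of 9 in outer bulge-like cells. Leaving out each library gave 7 to 8, 8 to 9, 6 to 8 and 8 to 9 called members against basal keratinocyte-like cells for the SG, IFE suprabasal, upper follicle suprabasal and outer bulge-like classes, and 8 to 8 for SG against upper follicle suprabasal-like cells.

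Over time, where 0 members were called, leaving out each library gave 0 to 1 calls in SG-like cells (1 without 4 h), 0 to 4 in basal keratinocyte-like (4 without 0 h), 0 to 2 in IFE suprabasal-like (2 without 4 h), 0 to 1 in upper follicle suprabasal-like (1 without 4 d), 0 to 6 in outer bulge-like, 0 to 1 in melanocyte-like (1 without 4 h) and 0 to 2 in T cell-like cells (2 without 0 h, 1 without 4 d or 6 d). In outer bulge-like cells 3 were called with DESeq2, 3 on the log2(hours + 1) scale, 3 on the rank scale and 1 without the filter, which called 211 genes; in melanocyte-like cells 1 on the log2 and 1 on the rank scale; in T cell-like cells 1 without the filter. The cause of these moves was not tested. With 5 libraries 1 residual degree of freedom is left. Of 240 shares of cells, 88 moved beyond their interval, since thinning to 1000 UMIs or none changes a share by its construction. No paired analysis was possible because each time point is 1 library and the labels give no replicate number that time points share; the library itself is the block between cell types. Depth limits Fads1, Fads2 and Elovl5 in keratinocytes, where a library holds few UMIs of them.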
